A study of Mus musculus with 10 samples.

Results

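The data were examined for 34 genes of glycolysis and of the response to low oxygen. They were chosen by name and found in both deposited tables, which list 23202 genes for sorted tumor macrophages and 19720 for whole tumors. By role the set held 2 glucose transporters, 15 glycolytic enzymes, 2 regulators of glycolytic flux, 2 monocarboxylate transporters, 2 HIF alpha subunits and 11 other HIF targets. By name 33 of the 34 were listed. Ero1l was found by gene identifier under its other symbol, Ero1a, and Aldoa had a second, nearly unread entry at 0 to 0.71 CPM in macrophages and 0 to 2.88 CPM in tumors that was not used. CPM is the count of a gene scaled to a library total of 1e+06. All mice were MMTV-PyMT animals on a B6 background, in which a viral oncogene expressed from a mammary promoter gives rise to mammary tumors, and all carried floxed Cxcr4 alleles (Cxcr4fl/fl). Cxcr4 encodes the receptor of the chemokine CXCL12. Mice labelled cKO also carried LysmCre, which drives recombination in myeloid cells, neutrophils included, while the controls were littermates with no Cre. Tumors were harvested at 15 weeks. Cells positive for F4/80 and CD11b were sorted from dissociated tumors of 3 controls (mice 706, 720 and 775) and 3 cKO mice (725, 746 and 867). Whole tumors came from controls 706 and 720 and from cKO mice 725 and 746, so that 4 mice gave both kinds of library.

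Cells take up glucose through transporters, split it to pyruvate by the glycolytic enzymes, and can reduce pyruvate to lactate, which leaves through monocarboxylate transporters. The hypoxia-inducible factors HIF-1 and HIF-2 pair an alpha subunit, encoded by Hif1a or Epas1, with the constant subunit ARNT. With oxygen, prolyl hydroxylases mark the alpha subunit for destruction, and without it the pair binds a short core motif and induces most genes of glycolysis together with genes of angiogenesis, pH control and matrix synthesis. Tumor macrophages are known for glycolytic metabolism and often gather in poorly oxygenated regions. The study compared tumors with and without myeloid Cxcr4. The present comparison sets the enzymes against the other HIF targets, and both against the rest of the genes.

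The HIF core motif was present in the promoters of nearly all these genes. RefSeq promoter windows of GRCm38.p6 (250 bases before to 50 bases after a start) were found for 31 of the 34 genes, all but Ndrg1, Epas1 and Slc2a3. The motifs searched were ACGTG and GCGTG with their reverse complements CACGT and CACGC, where ACGTG and CACGT overlap within CACGTG and both count. At least 1 match was found in 29 of the 31 genes (93.5%), against 46.7% of all 27025 genes with a window, and in 37 of 44 windows against 43.8% of all 32851 windows. All 10 other HIF targets with a window held a match, as did 13 of 15 enzymes, Gpi1 and Tpi1 being without. The windows of the set were also richer in CG dinucleotides, with a median of 22 against 7 over all windows, and each motif contains a CG. A match is a description of the sequence and not a site of binding. The windows below belong to genes on which the results turn, in the strand of the gene, with matches in capitals: Slc2a1, Pfkfb3 and Slc16a3, which separated macrophages from tumors; Slc16a1, which lay lower there; Ldha, with the largest number of matches, 7; and Egln1 and Bnip3, whose groups separated in tumors.
Slc2a1 chr4:119108495-119108794, plus strand: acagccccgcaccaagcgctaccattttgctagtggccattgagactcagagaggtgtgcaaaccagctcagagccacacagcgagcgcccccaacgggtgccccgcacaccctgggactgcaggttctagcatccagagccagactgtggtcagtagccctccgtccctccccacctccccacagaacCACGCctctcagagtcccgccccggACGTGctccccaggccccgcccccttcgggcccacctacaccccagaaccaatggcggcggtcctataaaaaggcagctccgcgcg
Pfkfb3 chr2:11502041-11502340, minus strand: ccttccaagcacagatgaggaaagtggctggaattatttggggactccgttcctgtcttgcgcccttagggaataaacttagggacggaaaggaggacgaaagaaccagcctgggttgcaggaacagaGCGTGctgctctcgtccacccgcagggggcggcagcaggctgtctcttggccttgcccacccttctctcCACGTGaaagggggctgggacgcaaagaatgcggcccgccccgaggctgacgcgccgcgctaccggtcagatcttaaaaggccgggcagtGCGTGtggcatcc
Slc16a3 chr11:120948817-120949116, plus strand: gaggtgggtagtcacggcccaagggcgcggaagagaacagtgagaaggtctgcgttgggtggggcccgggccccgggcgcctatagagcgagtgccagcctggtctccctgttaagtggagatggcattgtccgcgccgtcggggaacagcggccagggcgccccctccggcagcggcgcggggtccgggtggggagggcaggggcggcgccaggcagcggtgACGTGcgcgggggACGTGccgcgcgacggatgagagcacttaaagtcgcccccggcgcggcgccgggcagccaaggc
Slc16a1 chr3:104638414-104638713, plus strand: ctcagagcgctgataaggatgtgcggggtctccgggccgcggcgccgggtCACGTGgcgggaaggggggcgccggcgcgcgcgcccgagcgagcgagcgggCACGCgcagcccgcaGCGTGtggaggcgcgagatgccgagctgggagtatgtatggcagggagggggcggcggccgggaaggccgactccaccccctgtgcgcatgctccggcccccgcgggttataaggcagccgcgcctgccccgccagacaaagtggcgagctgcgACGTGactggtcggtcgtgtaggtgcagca
Ldha chr7:46845554-46845853, plus strand: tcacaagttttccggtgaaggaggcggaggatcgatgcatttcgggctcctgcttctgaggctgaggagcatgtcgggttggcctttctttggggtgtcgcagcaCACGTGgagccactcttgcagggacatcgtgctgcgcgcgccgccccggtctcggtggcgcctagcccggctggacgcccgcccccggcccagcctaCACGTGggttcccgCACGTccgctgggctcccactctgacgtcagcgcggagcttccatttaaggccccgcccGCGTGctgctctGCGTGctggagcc
Egln1 chr8:124949205-124949504, minus strand: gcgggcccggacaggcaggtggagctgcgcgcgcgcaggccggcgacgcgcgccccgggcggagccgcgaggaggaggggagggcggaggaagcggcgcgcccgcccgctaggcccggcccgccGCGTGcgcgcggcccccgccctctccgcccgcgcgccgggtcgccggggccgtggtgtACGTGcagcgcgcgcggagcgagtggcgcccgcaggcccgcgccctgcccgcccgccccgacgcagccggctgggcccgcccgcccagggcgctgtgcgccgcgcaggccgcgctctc
Bnip3 chr7:138909457-138909756, minus strand: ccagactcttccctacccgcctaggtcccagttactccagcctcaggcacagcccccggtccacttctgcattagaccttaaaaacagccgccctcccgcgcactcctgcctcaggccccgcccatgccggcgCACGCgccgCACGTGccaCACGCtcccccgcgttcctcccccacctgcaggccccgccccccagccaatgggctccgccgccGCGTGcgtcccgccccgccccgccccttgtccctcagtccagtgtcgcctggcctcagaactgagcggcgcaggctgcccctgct
Slc16a1 and Bnip3 held 5 matches each and the Pfkfb3 window 4, a CACGTG counting as 2 matches. The Slc2a1, Slc16a3 and Egln1 windows held 2 each. In the GENCODE vM21 annotation of GRCm38, Slc2a1 spans chr4:119108711-119137983, Pfkfb3 chr2:11471433-11554077, Slc16a3 chr11:120948480-120960868 and Slc16a1 chr3:104638668-104658462. Ldha spans chr7:46841475-46855627, Egln1 chr8:124908587-124949324 and Bnip3 chr7:138890836-138909519. The windows shown for Pfkfb3, Slc16a3 and Ldha lie inside the annotated gene, at a downstream start. Pfkfb3 and Ldha each have a second window, not shown, with fewer matches. It holds 1 match for Pfkfb3 (chr2:11553880-11554179) and 2 for Ldha (chr7:46846832-46847131).

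The sorted macrophages were read to a depth of 14.4 to 25.2 M and the tumors to 34.2 to 53.4 M (M, 1e+06 reads), as inferred from the worth of a single read in each library. Protein-coding genes took 67.6% to 80.1% of macrophage reads and 49.7% to 56.5% of tumor reads. Cxcr4 transcript went against the labels or overlapped: the groups overlapped in macrophages, and both cKO-labelled tumors lay above both controls. In macrophages it was at 14.4, 135 and 54.3 CPM in controls 706, 720 and 775 and at 41.9, 165 and 24.1 CPM in cKO 725, 746 and 867, 0.21 log2 units apart (SE 0.59, limma adjusted p = 0.9998). In tumors it was at 29.8 and 33.4 CPM in the controls and 47.9 and 57.6 CPM in the libraries labelled cKO, 0.72 log2 units higher (SE 0.29, limma adjusted p = 0.819). Whole tumors also hold cells outside the myeloid lineage, so their Cxcr4 level does not show whether the gene was deleted in macrophages. In sorted cells a value for the whole gene need not fall where only part of the gene is removed. Whether that holds here was not tested, nor was any other cause. Every direction below is therefore one between libraries labelled cKO and libraries labelled control, and a name such as cKO 746 gives label and mouse. The 10 macrophage markers checked, among them Adgre1 (F4/80) and Itgam (CD11b), were all above 0 in the 6 macrophage libraries. They summed to 902 CPM in control 775 and 1831 to 2291 CPM in the other 5, against 94.7 to 105 CPM in tumors. The 10 epithelial markers were also all above 0 in every library, at a sum of 2398 to 3375 CPM in the sorted cells and 1601 to 1865 CPM in tumors. In these bulk samples, fewer cells of a type and less RNA per cell cannot be told apart.

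Per length of all annotated exons of a gene, Slc2a1 and the enzymes Aldoa, Ldha and Pkm had the highest medians of the set in macrophages. Slc2a1, which encodes the glucose transporter GLUT1, had a median of 95.4 CPM per kb (range 47.4 to 123 over 6 libraries) and Aldoa, the main aldolase, 87.97 CPM per kb (49.998 to 164). Lactate dehydrogenase A (Ldha) followed at 58.9 CPM per kb (42.5 to 82.0) and pyruvate kinase (Pkm) at 56.8 CPM per kb (32.2 to 73.4). Neighbors in this order overlapped in range, and the order depends on the length used. Annotated exons span 3506 bases for Slc2a1, whose longest coding transcript holds 3186 stretches of 75 bases. The same values are 2911 and 1475 for Aldoa, 3310 and 1741 for Ldha, and 5001 and 2358 for Pkm. Hif1a stood at 42.6 CPM per kb (37.6 to 50.4) and Epas1 at 8.36 CPM per kb (4.61 to 15.0), without overlap. Of the hexokinases, which trap glucose in the cell, Hk2 was at 18.4 CPM per kb (11.5 to 23.8) and Hk1 at 4.36 CPM per kb (3.38 to 5.79). Among the phosphofructokinases, which commit glucose to glycolysis, Pfkl was at 13.5 CPM per kb (5.80 to 16.6). Pfkp was at 5.59 CPM per kb (3.71 to 9.66) and Pfkm at 2.77 CPM per kb (1.81 to 6.68), so that their ranges overlapped. The order in tumors was led by Aldoa at 48.3 CPM per kb (41.2 to 79.4 over 4 libraries) and Ldha at 43.4 CPM per kb (30.1 to 49.5). There Slc2a1 stood at 17.2 CPM per kb (15.0 to 17.7), below Pkm, Tpi1, Hif1a, Pgk1 and Ero1a. Hk1, at 4.32 CPM per kb (2.05 to 4.88), and Hk2, at 2.56 CPM per kb (1.74 to 4.92), overlapped in tumors, whereas in macrophages every Hk2 value exceeded every Hk1 value.

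**Figure D1:**
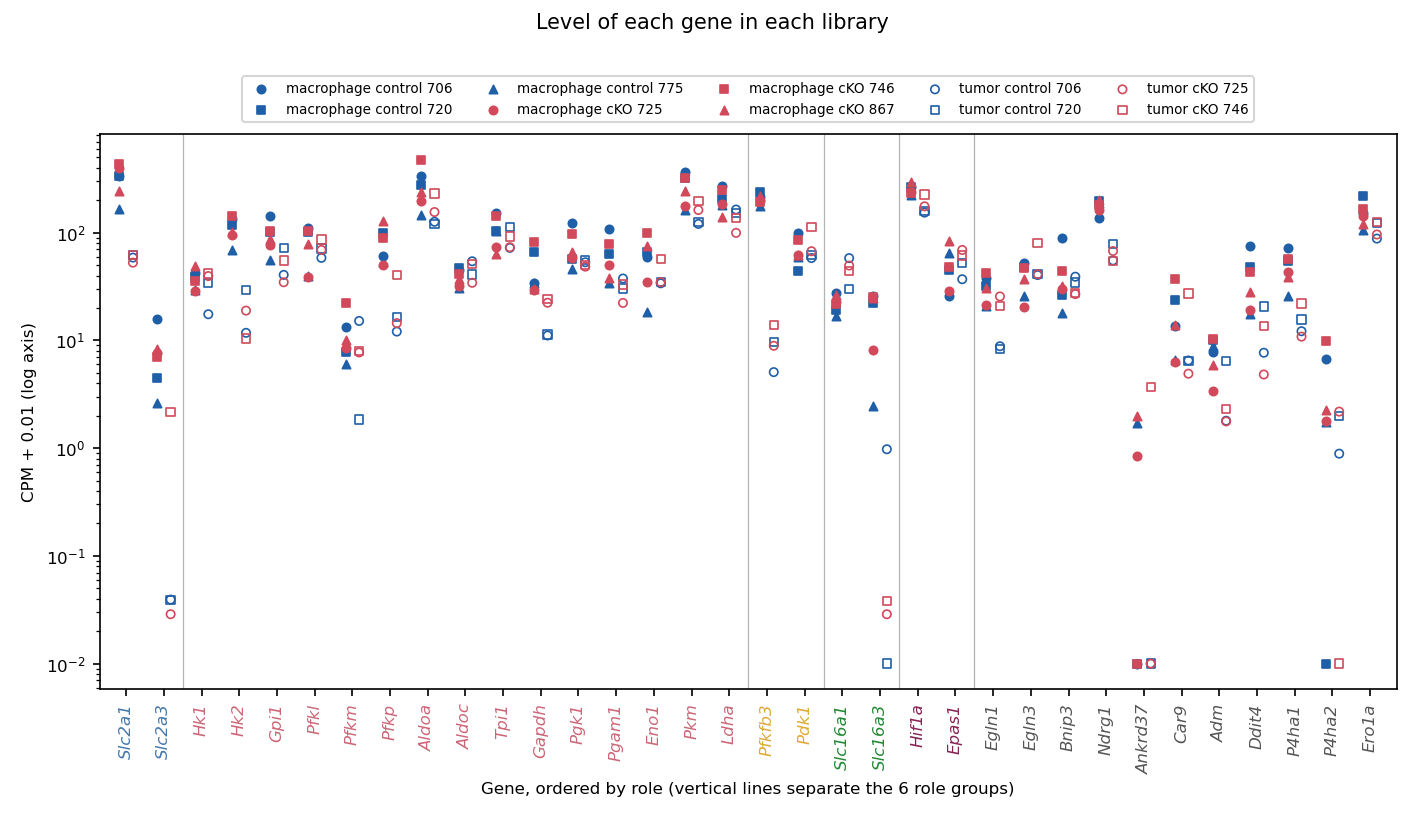
Level of each of the 34 genes in each library, as CPM plus 0.01 on a log axis, with genes ordered by role; filled symbols are macrophage libraries, open symbols whole tumors, blue control and red cKO-labelled, 1 symbol a mouse. Pfkfb3 lay at 177 to 240 CPM in macrophages and 5.06 to 13.95 CPM in tumors, while Hif1a and Ldha lay close together in both.

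Set side by side, the sorted macrophage libraries carried more transcript of glucose uptake, of Hk2, of the activator Pfkfb3 and of the lactate exporter Slc16a3 than whole tumors, while most enzymes overlapped. The tables were normalized separately and no test was made between them. Of 33 genes compared (Ankrd37 was too low), every macrophage library lay above every tumor library for 9 and below for 1, against 18.6% above and 3.90% below over 16221 genes. When both tables were scaled to protein-coding genes, 6 genes lay above (Slc2a1, Slc2a3, Hk2, Pfkfb3, Slc16a3 and Ndrg1) and 3 below (Slc16a1, Aldoc and Egln3), against 10.4% above and 11.0% below over all genes. Such scaling moved the all-gene median of the difference between macrophages and the tumor of the same mouse from 0.36 to -0.05 log2 units.

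Both glucose transporters lay higher in the macrophage libraries. Slc2a1 was at 334, 334 and 166 CPM in macrophages of controls 706, 720 and 775 and at 398, 432 and 243 CPM in those of cKO 725, 746 and 867. In tumors Slc2a1 was at 58.6, 62.1, 52.7 and 62.1 CPM in mice 706, 720, 725 and 746. All 6 macrophage values were above all 4 tumor values, and the log2 difference within a mouse was 2.49, 2.41, 2.89 and 2.78 in the same order. Slc2a3, which encodes the high-affinity transporter GLUT3, was weak, at 15.6, 4.50 and 2.61 CPM in control macrophages and 7.57, 6.95 and 8.27 CPM in cKO-labelled ones. In 3 of the 4 tumors Slc2a3 stayed under the limit of 3 reads (0.0562 to 0.0878 CPM), at 0.02 to 0.03 CPM, and only cKO 746 held more, at 2.15 CPM. No fold is given for it. Neutrophil markers, 6 of 9 listed, summed to 114 CPM in macrophages of control 706, where Slc2a3 was highest, and to 19.3 to 61.2 CPM in the other 5, and their part was not tested.

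Pfkfb3 makes fructose 2,6-bisphosphate, the strongest activator of phosphofructokinase, and showed the widest separation of any gene with a measurable tumor level. It was at 213, 240 and 177 CPM in control macrophages and 198, 191 and 220 CPM in cKO-labelled ones. In tumors Pfkfb3 was at 5.06, 9.66, 8.90 and 13.95 CPM in mice 706, 720, 725 and 746. The medians stood 22.2-fold apart (15.2-fold after scaling to protein-coding genes), and the log2 difference was 5.14, 4.50, 4.33 and 3.68 in those mice. Pdk1, a kinase that inhibits pyruvate dehydrogenase and is itself a HIF target, showed no such gap. It spanned 43.9 to 99.7 CPM in macrophages and 58.1 to 113 CPM in tumors. It was lower in macrophages than in the tumor of the same mouse in 3 of 4 mice.

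The lactate transporters pointed in opposite directions. Slc16a3, which encodes the exporter MCT4, was at 25.6, 22.2 and 2.43 CPM in control macrophages and 8.21, 25.1 and 24.96 CPM in cKO-labelled ones. In tumors it was at 0.97 CPM in control 706, 0 in control 720, and 0.02 and 0.03 CPM in cKO 725 and 746, where 3 reads correspond to 0.0562 to 0.0878 CPM. The gene overlaps Csnk1d on the opposite strand, which was read at 77.2 to 106 CPM in the same tumors. Slc16a1, which encodes the bidirectional carrier MCT1, was the only gene of the set lower in every macrophage library as deposited. It was at 27.6, 19.0 and 16.7 CPM in control macrophages and 22.5, 21.7 and 26.3 CPM in cKO-labelled ones, against 58.0, 29.9, 49.5 and 44.2 CPM in the tumors of mice 706, 720, 725 and 746.

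Taken as a median, the 15 enzymes were moderately higher in macrophages, though not each of them. Their median difference within a mouse was 0.80 log2 units (from -0.18 for Aldoc to 2.84 for Hk2), against 0.36 over all genes, and 0.32 against -0.05 after scaling to protein-coding genes. Hk2, the inducible hexokinase, was at 134, 118 and 68.5 CPM in control macrophages and 94.6, 142 and 101 CPM in cKO-labelled ones. In tumors it was at 11.7, 29.3, 18.9 and 10.4 CPM in mice 706, 720, 725 and 746, so that no value overlapped. Pfkp (49.8 to 129 against 12.1 to 40.5 CPM) and Gapdh (29.4 to 81.4 against 11.1 to 24.2 CPM) also separated as deposited but overlapped when scaled to protein-coding genes. Hk1, Pfkl, Pfkm, Aldoa, Aldoc, Tpi1, Pgk1, Pgam1, Eno1, Pkm, Ldha and Gpi1 overlapped as deposited. Of these, Aldoc lay below every tumor after scaling. Of the 15, 10 were higher in macrophages in all 4 mice, and 3 after scaling. The matching share of all genes was not computed, so these counts are not shown to be particular to the enzymes.

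The ranges of both HIF subunits overlapped between the 2 kinds of sample. Hif1a spanned 222 to 297 CPM in macrophages and 153 to 227 CPM in tumors. Within a mouse it was higher in macrophages in all 4 mice as deposited, by 0.78, 0.74, 0.44 and 0.06 log2 units in mice 706, 720, 725 and 746. After scaling to protein-coding genes it was higher in 2 of 4. Epas1, known for its expression in endothelium, spanned 25.8 to 83.8 CPM in macrophages and 36.9 to 69.0 CPM in tumors, and was lower in macrophages in all 4 mice. Other HIF targets had a median difference within a mouse of 1.04 log2 units (-0.27 for Egln3 to 1.81 for P4ha1), or 0.72 after scaling to protein-coding genes. Ndrg1, a hypoxia-induced differentiation gene, was at 136, 196 and 188 CPM in control macrophages and 161, 179 and 203 CPM in cKO-labelled ones. In tumors it was at 55.1, 78.3, 67.5 and 54.7 CPM in mice 706, 720, 725 and 746, below every macrophage library under both scalings. P4ha1, a collagen prolyl hydroxylase subunit, was at 25.8 to 71.3 CPM against 10.8 to 22.03 CPM and overlapped after scaling. Egln3, a prolyl hydroxylase that acts on HIF, was at 20.3 to 51.8 CPM against 40.4 to 80.2 CPM, and lay below every tumor after scaling. Egln1, Bnip3, Car9, Adm, Ddit4, P4ha2 and Ero1a overlapped under both scalings.

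Over all 33 genes the median difference within a mouse was 0.92 log2 units (0.46 after scaling), against 0.36 (-0.05) for all genes. Of the 33, 21 were higher in macrophages in 4 of 4 mice (10 after scaling). The matching share of all genes was not computed, so these counts are not shown to be particular to the set. Sorted cells and tumors were handled differently per the labels: the tumors were snap frozen, the cells were dissociated with enzymes before sorting. Immediate early genes (Fos, Fosb, Jun, Junb, Egr1, Ier2, Atf3 and Dusp1, a list added after the data were seen), which respond to dissociation, summed to 7385 to 11497 CPM in sorted macrophages and 131 to 249 CPM in tumors. Cell type and handling cannot be told apart in these values. The sorted libraries also held epithelial markers at a higher sum (2398 to 3375 CPM) than macrophage markers (902 to 2291 CPM) and than the tumors did (1601 to 1865 CPM), so a transcript in them is not thereby assigned to macrophages.

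**Figure D2:**
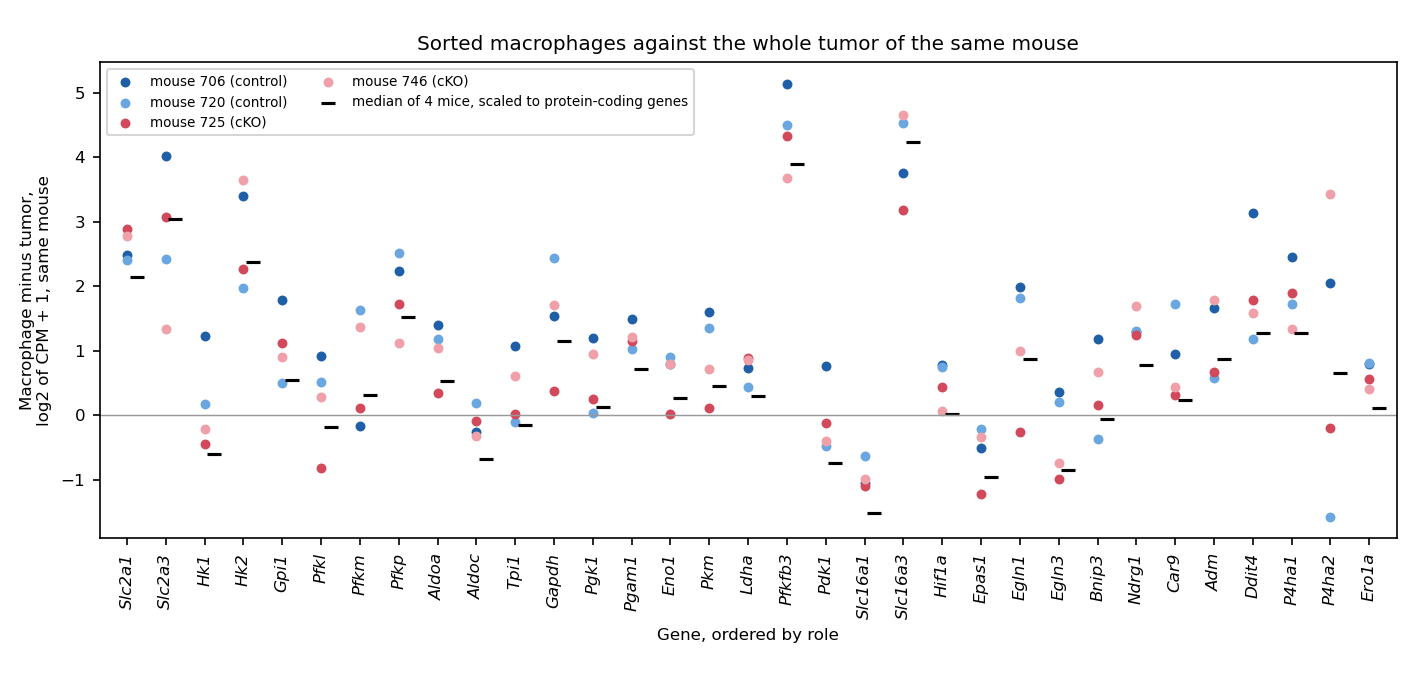
Macrophage minus tumor difference, in log2 of CPM + 1, for each gene in each of the 4 mice with both libraries; a point is a mouse as deposited, and a black bar is the median of the 4 after scaling both tables to protein-coding genes. Pfkfb3 lay between 3.68 and 5.14 in all 4 mice and Slc16a1 below 0 in all 4, while the bars of the enzymes other than Hk2, Pfkp and Gapdh lay between -0.68 and 0.72.

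Other genes of the same pathways, taken from lists of 32 glycolysis and glucose genes and 38 HIF pathway and target genes, were compared in the same way. Of 22 further glycolysis genes compared, 4 lay above every tumor library and 1 below, or 2 and 2 after scaling to protein-coding genes. Of 36 further HIF genes, 10 lay above and 1 below, or 7 and 6 after scaling. Over all genes 18.6% lay above and 3.90% below, or 10.4% and 11.0% after scaling, and Pfkfb4 is counted in both lists. Vegfa, the main angiogenic factor, was at 276 to 724 CPM in macrophages against 45.3 to 57.7 CPM in tumors. Pfkfb4, an isoenzyme of Pfkfb3, was at 9.09 to 23.6 CPM against 0 to 1.79 CPM. Among the genes that lay above under both scalings were Pfkfb4, Slc2a6, Vegfa, Bhlhe40, Hmox1, Pdgfb and Hilpda. Lox, a collagen cross-linking enzyme of stromal cells, and Pdk2 lay below under both. Vhl, which targets HIF alpha subunits for destruction, overlapped, at 28.5 to 60.6 CPM against 28.4 to 39.2 CPM.

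In macrophages none of the genes differed between the groups beyond the spread between mice. Of 33 tested genes, 0 had an adjusted p under 0.05 (limma, Benjamini-Hochberg over 16304 genes, of which 0 passed, 0%), and 0 had an unadjusted p under 0.05, against 2.63% of all genes (1.53% higher and 1.09% lower). The groups overlapped for all 33, whereas over all genes they separated in 7.24% (3.78% above and 3.45% below). A positive difference, higher in the libraries labelled cKO, was found for 18 of 33, against 54.7% of all genes. The median difference was -0.02 log2 units for the 15 enzymes, -0.02 for 10 other HIF targets and 0.03 for all 33, against 0.05 for all genes tested.

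Slc2a1, whose values are given above, had the lowest p of the transporters, with a log2 difference of 0.39 (SE 0.30, 95% interval -0.23 to 1.001, limma adjusted p = 0.9998). Slc2a3 differed by 0.31 (SE 0.65), and its sign turned to -0.16 without control 775. Among the enzymes, Eno1, which encodes enolase, was at 59.4, 66.7 and 18.2 CPM in controls and 35.1, 99.9 and 75.3 CPM in cKO-labelled libraries, a difference of 0.61 (SE 0.42, 95% interval -0.27 to 1.48). The low value of control 775 carried most of it, and without that library the difference was 0.03. Triose phosphate isomerase (Tpi1) was at 153, 104 and 103 CPM in controls and 74.2, 142 and 63.5 CPM in cKO-labelled libraries, a difference of -0.43 (SE 0.30, 95% interval -1.05 to 0.20). For the regulators the differences were 0.11 (SE 0.31) for Pdk1 and -0.04 (SE 0.24, 95% interval -0.55 to 0.46) for Pfkfb3.

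Slc16a3 differed by 0.52 (SE 0.63), and by -0.43 without control 775, where it was at 2.43 CPM. Slc16a1 differed by 0.18 (SE 0.38). Hif1a was at 264, 265 and 222 CPM in controls and 238, 236 and 297 CPM in cKO-labelled libraries, a difference of 0.03 (SE 0.24, 95% interval -0.47 to 0.53) that turned to -0.03 with scaling to protein-coding genes. Epas1 was at 25.8, 45.1 and 65.3 CPM in controls and 29.0, 48.4 and 83.8 CPM in cKO-labelled libraries, a difference of 0.21 (SE 0.38). Its highest values, in control 775 and cKO 867, fell in the libraries with the highest endothelial markers, 109 and 293 CPM summed over 10 genes against 16.6 to 26.1 CPM in the other 4, and their part in it was not tested. Of the other HIF targets, Ddit4, an inhibitor of mTORC1, was at 75.4, 48.3 and 17.7 CPM in controls and 19.0, 42.9 and 27.9 CPM in cKO-labelled libraries, a difference of -0.49 (SE 0.43). P4ha2 was weak, at 6.74, 0 and 1.74 CPM in controls and 1.77, 9.81 and 2.23 CPM in cKO-labelled libraries, a difference of 0.73 (SE 0.86). The 0 in control 720 allows up to 0.134 CPM, and without that library the difference was -0.01. All limma adjusted p were 0.9998.

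**Figure D3:**
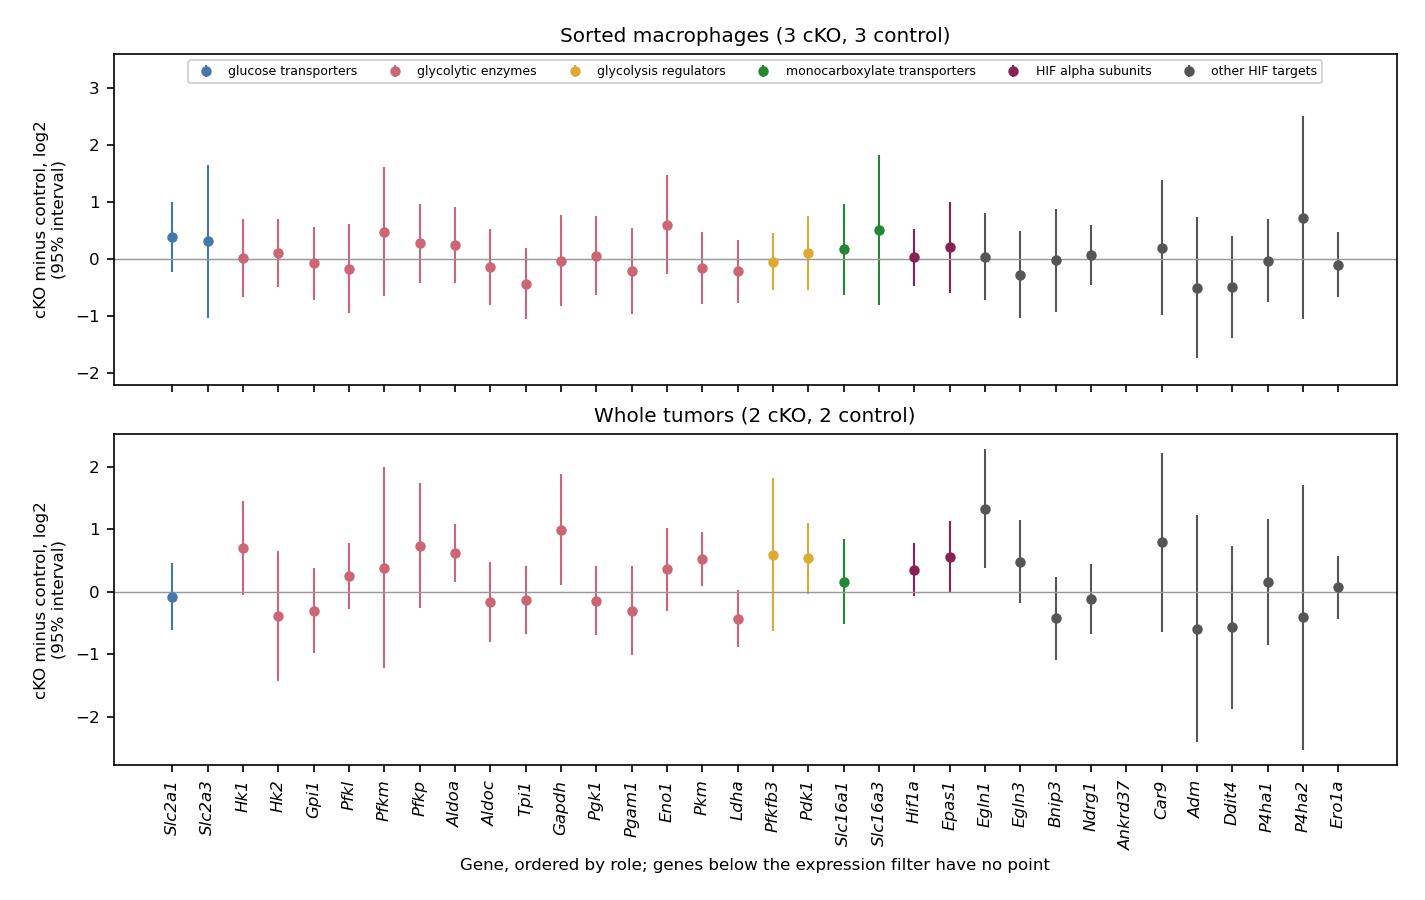
Difference between cKO-labelled and control libraries for each tested gene, in log2 of CPM + 1, with its 95% interval from limma, for 6 macrophage libraries above and 4 tumor libraries below; colors mark the roles. Every macrophage interval includes 0, and in tumors those of Egln1, Gapdh, Aldoa and Pkm lie above 0 before adjustment for the number of genes.

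Whole libraries stood high or low across the set. Control 775 had the lowest value for 20 of 33 genes, among them 9 of 15 enzymes and both lactate transporters, whereas it was lowest for 19.4% of all genes. Relative to the mean of the table, the median of the 33 genes was -0.50 log2 units in control 775 and -0.28 in cKO 725. It was 0.34 in control 706, 0.15 in control 720, 0.35 in cKO 746 and -0.05 in cKO 867, with all-gene medians from -0.11 to 0.14. Control 706 held the highest value for 15 of 33 genes and cKO 746 for 10, against 19.9% and 24.04% of all genes. By the medians of the set, high and low libraries occurred in both groups. The macrophage markers were low in control 775 as well, with a median of -0.98 against 0.04 to 0.44 in 4 libraries and -0.23 in cKO 867. Epithelial markers lay at -0.00 in control 775 and at -0.28 in cKO 725. Fibroblast markers, 10 of 10 listed, summed to 596 CPM in control 775 and 2011 CPM in cKO 867, against 140.0 to 549 CPM in the other 4, which each had 1 to 4 of the 10 at 0. Endothelial markers were high in the same 2 libraries, with medians of 1.13 and 2.37. The part of these cell types in the level of the set was not tested. Without control 775 the median differences between groups were -0.22 for enzymes and -0.39 for other HIF targets, and without control 706 they were 0.19 and 0.09.

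**Figure D4:**
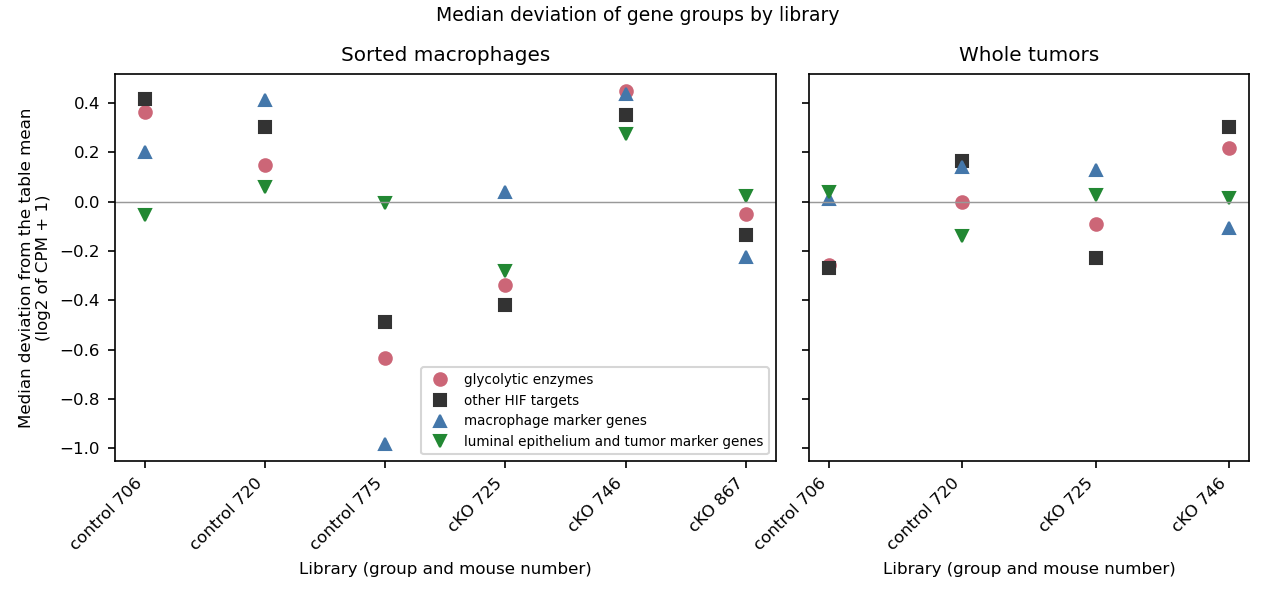
Median deviation from the table mean, in log2 of CPM + 1, of the glycolytic enzymes, the other HIF targets, macrophage markers and epithelial markers in each library, for the 6 macrophage libraries on the left and the 4 tumors on the right. Enzymes and other HIF targets lay close together in each library, from 0.45 and 0.35 in cKO 746 to -0.63 and -0.49 in control 775.

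In whole tumors several genes of the set lay higher in both cKO-labelled libraries, Egln1, Aldoa, Pkm and Gapdh among them, while Ldha, Pgk1 and Bnip3 lay lower, and none passed the test. Of 31 genes tested, 0 had an adjusted p under 0.05 (limma, over 14630 genes, of which 0 passed, 0%), and 4 had an unadjusted p under 0.05, against 5.85% of all genes. All 4 were higher in the cKO-labelled tumors, as were 3.90% of all genes, against 1.95% lower. Both cKO-labelled values were above both controls for 8 genes and below for 3, against 21.2% and 14.3% of all genes, so the total of non-overlapping genes was close to the 35.5% of all genes. A positive difference was found for 18 of 31, against 56.6% of all genes. Slc2a3, Slc16a3 and Ankrd37 fell below the expression filter of a mean of 1 CPM. Ankrd37 was at 0 in 3 tumors and 3.70 CPM in cKO 746, and at 0 to 1.99 CPM in macrophages.

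Egln1 encodes PHD2, the main prolyl hydroxylase that marks HIF alpha subunits, and had the lowest p of the set. It was at 8.81 and 8.34 CPM in controls 706 and 720 and at 25.6 and 20.9 CPM in cKO 725 and 746, a log2 difference of 1.33 (SE 0.45, 95% interval 0.38 to 2.28, limma adjusted p = 0.819). The difference was 1.19 to 1.47 with any library left out. In macrophages of the same 4 mice Egln1 was at 37.8, 31.8, 21.1 and 42.4 CPM, with no separation. Its relative Egln3 was at 40.4 and 41.2 CPM in control tumors and 41.1 and 80.2 CPM in cKO-labelled ones, a difference of 0.49 (SE 0.31, limma adjusted p = 0.850) that rested on cKO 746 and was 0.01 without it. Both HIF alpha subunits lay higher in the cKO-labelled tumors. Hif1a was at 153 and 158 CPM in controls and 175 and 227 CPM in cKO-labelled tumors (difference 0.36, SE 0.20), and Epas1 at 36.9 and 52.5 against 69.0 and 61.5 CPM (0.55, SE 0.27, limma adjusted p = 0.833 for both).

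Among the 15 enzymes the groups separated upward for 4 and downward for 2, near the 21.2% and 14.3% of all genes. Aldoa was at 126 and 120.0 CPM in controls and 155 and 231 CPM in cKO-labelled tumors, a difference of 0.62 (SE 0.22, 95% interval 0.15 to 1.08, limma adjusted p = 0.819). Pkm was at 120 and 126 CPM in controls and 162 and 195 CPM in cKO-labelled tumors, a difference of 0.53 (SE 0.20, 95% interval 0.10 to 0.96, limma adjusted p = 0.819). Ldha, which follows Pkm in the pathway, lay the other way, at 164 and 151 CPM in controls and 99.5 and 136 CPM in cKO-labelled tumors. Gapdh was at 11.1 and 11.3 against 22.3 and 24.2 CPM, Hk1 at 17.5 and 34.3 against 39.5 and 41.6 CPM, and Pgk1 at 53.1 and 55.4 against 48.4 and 49.9 CPM. The difference was positive for 8 of 15 enzymes, with a median of 0.26 log2 units against 0.09 for all genes. That median was 0.02 without cKO 746. Scaling to protein-coding genes moved it to 0.14 and the all-gene median to -0.03.

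Of the regulators, Pdk1 was at 58.1 and 61.7 CPM in control tumors and 67.2 and 113 CPM in cKO-labelled ones (difference 0.53, SE 0.27, limma adjusted p = 0.833), and Pfkfb3 differed by 0.60 (SE 0.58, limma adjusted p = 0.891). Slc2a1 differed by -0.08 (SE 0.25, 95% interval -0.61 to 0.46), with 4 values between 52.7 and 62.1 CPM, and Slc16a1 by 0.16 (SE 0.32). Other HIF targets had a median of -0.02 log2 units, 5 positive and 5 negative. Bnip3, which drives removal of mitochondria, was at 39.0 and 34.4 CPM in controls and 26.9 and 27.3 CPM in cKO-labelled tumors. Car9, the carbonic anhydrase of hypoxic cells, was at 6.498 and 6.42 CPM in controls and at 4.90 and 27.2 CPM in cKO 725 and 746. Adm, Ddit4, P4ha1, P4ha2, Ndrg1 and Ero1a overlapped, between 0 and 125 CPM. Tumor cKO 746 held the highest value for 15 of 31 genes, against 29.99% of all genes, and control 706 the lowest for 13, against 27.2% of all genes. Immediate early genes, 8 of 8 above 0, summed to 249 CPM in tumor cKO 746 and 131 to 160 CPM in the other 3. Fibroblast markers, 10 of 10 above 0, summed to 686 and 796 CPM in control tumors and 407 and 503 CPM in cKO-labelled ones, while macrophage markers summed to 102 and 105 against 100.4 and 94.7 CPM. Their part in these differences was not tested.

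The contrast between the enzymes and the other HIF targets was small in every library. It was taken as the median deviation of the enzymes minus that of the other HIF targets. Each gene was centered on its own mean in the table, so the contrast holds no difference in level. In macrophages it was -0.05, -0.16 and -0.15 log2 units in controls 706, 720 and 775 and 0.08, 0.10 and 0.09 in cKO 725, 746 and 867. The groups did not overlap, and their means differed by 0.21, while the medians of the fitted differences were nearly equal (-0.02 for both lists). No test was made of this value. It was 0.12 with overlapping groups without Egln1 and Egln3 among the targets, and the groups also overlapped without control 720 (0.15) or cKO 746 (0.07). Without control 706 it was 0.13. In tumors the contrast was 0.01 and -0.16 in controls and 0.13 and -0.09 in cKO 725 and 746, overlapping, with a difference of 0.10. Without Egln1 and Egln3 the tumor groups no longer overlapped, and the difference was 0.33. Across libraries the medians spanned a wider range, from -0.63 to 0.45 log2 units for enzymes and from -0.49 to 0.42 for other HIF targets in macrophages. In level, the median of macrophages minus tumor within a mouse was 0.80 log2 units for enzymes and 1.04 for other HIF targets. After scaling to protein-coding genes these medians were 0.32 and 0.72. The genes of both lists overlapped in this difference, which was not tested.

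Levels of several enzymes may depend on how reads were assigned to near-identical copies, which was not tested. Of all 75-base stretches of the longest coding transcript, 80.3% for Gapdh occur in transcripts of other annotated genes, 118 in number. The share was 67.5% for Pgk1, 65.4% for Eno1, 40.6% for Pgam1, 19.6% for Pkm and 15.3% for Bnip3. It was 0 for both glucose transporters, both hexokinases, the 3 phosphofructokinases, Pfkfb3 and Egln1. Gapdh, a housekeeping enzyme, had a median of 8.25 CPM per kb in macrophages (7.11 to 19.7). Eno1 had 11.7 CPM per kb (3.39 to 18.6), and both lay below Aldoa, which shares 1.49%. These levels also depend on the length used, which was that of all annotated exons, 4133 bases for Gapdh and 5379 for Eno1. Their longest coding transcripts hold only 1346 and 1953 stretches of 75 bases. Eno1b, the near-identical copy of Eno1, was read at 64.0 to 200 CPM in macrophages, above Eno1 in every library, and the sum of both was at 186, 151 and 82.2 CPM in controls and 105, 299 and 208 CPM in cKO-labelled macrophages. Reads over Pkm may also be split with Gm49759, an overlapping gene model on the same strand, which was at 69.9 to 130 CPM in macrophages and 10.5 to 38.3 CPM in tumors. The sum of Pkm and Gm49759 in tumors was 131 and 164 CPM in controls and 184 and 227 CPM in cKO-labelled libraries, which did not overlap either. Pgk1 shares sequence with Pgk1-rs7, and the separation of Pgk1 in tumors was lost in the sum of both. That sum was 59.1 and 65.9 CPM in control tumors and 52.8 and 63.0 CPM in cKO-labelled ones, which overlapped. Pfkm, Pfkp, Tpi1, Gapdh and Aldoa overlap a protein-coding gene on the opposite strand (Senp1, Pitrm1, Spsb2, Iffo1 and Tlcd3b, the last under 1 CPM in every library), and whether counting used the strand is not given in the sources used here.

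**Figure D5:**
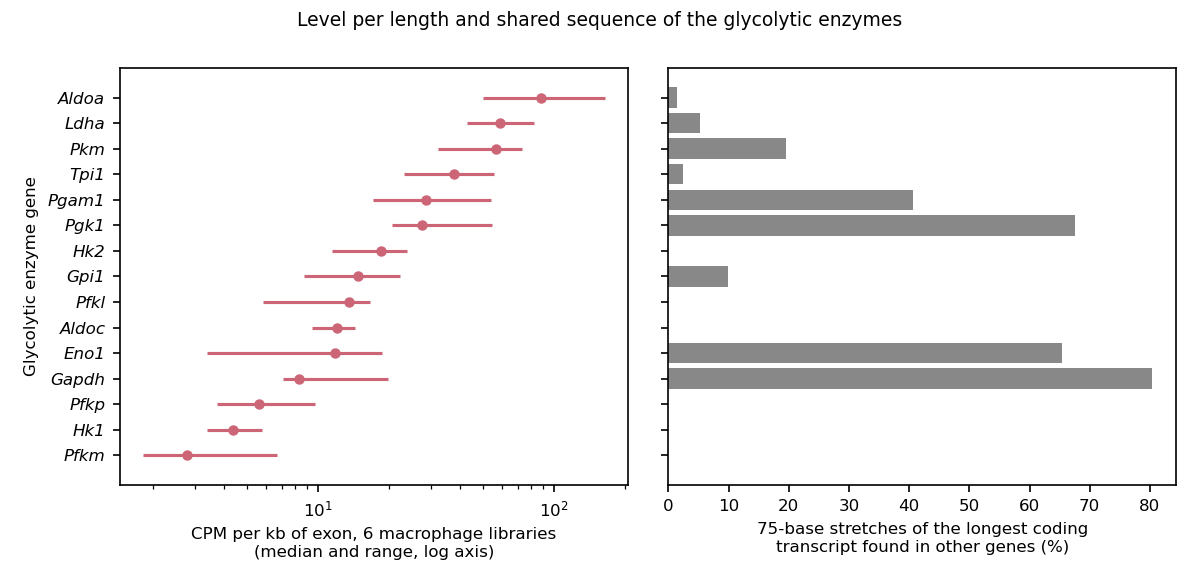
Level of the 15 glycolytic enzymes in the 6 macrophage libraries, as CPM per kb of exon (point, median; line, lowest to highest; log axis), beside the percentage of 75-base stretches of the longest coding transcript that occur in other genes. Gapdh, Pgk1 and Eno1 share 65.4% to 80.3%, and Aldoa, the enzyme with the highest median per kb of annotated exon (87.97 CPM per kb), shares 1.49%.

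Further genes of the pathways did not pass the test either. In macrophages 13 of 21 further glycolysis genes were positive and 8 negative (median 0.20 log2 units), and 16 of 36 further HIF genes were positive and 20 negative (median -0.04). Stc2, a secreted glycoprotein induced by hypoxia, was at 57.7, 50.5 and 65.6 CPM in controls and 67.2, 15.1 and 29.1 CPM in cKO-labelled macrophages, a difference of -0.87 (SE 0.40, limma adjusted p = 0.9998). Cited2, which competes with HIF-1 for its coactivator, differed by -0.55 (SE 0.29), and the transporters Slc16a7 and Slc2a6 by 0.42 (SE 0.33) and 0.67 (SE 0.64). In tumors 10 of 18 further glycolysis genes and 21 of 34 further HIF genes were positive, with medians of 0.20 and 0.13 log2 units. An unadjusted p under 0.05 was found in tumors for 1 of 18 and 4 of 34 of these genes, against 5.85% of all genes, and in macrophages for 0 of 21 and 1 of 36, against 2.63%. The transferrin receptor Tfrc was at 240 and 185 CPM in control tumors and 112 and 127 CPM in cKO-labelled ones, a difference of -0.81 (SE 0.21, limma adjusted p = 0.645). Zfp395, a hypoxia-induced zinc finger gene, was at 114 and 150 CPM against 175 and 225 CPM, a difference of 0.60 (SE 0.21, limma adjusted p = 0.819). G6pdx, the entry to the pentose phosphate pathway, was at 12.4 and 24.9 CPM in controls and 8.09 and 8.59 CPM in cKO-labelled tumors, a difference of -0.997 (SE 0.51). Bpgm differed by -0.85 (SE 0.51, limma adjusted p of both at least 0.833).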

How the data were processed

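RNA of 6 sorted macrophage samples and 4 whole tumors was sequenced after depletion of ribosomal RNA, per the labels' protocols, and each table was normalized separately by the authors. The submitters' processing notes name Partek, the aligner STAR 2.7.8a and the build GRCm38 (mm10). The deposited values are log2(CPM + 1): undone, they sum to 1e+06 in every library, which was read from the values. The planned log2 transform with a pseudocount of 1 was thus already in place and was not repeated. Only 82.5% to 90.2% of low values came out as whole reads within 0.1 read, so no count test was run. A gene at 0 allows up to 0.119 to 0.208 CPM (3 reads) in macrophages and 0.0562 to 0.0878 CPM in tumors, for counting error only.

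Differences, cKO minus control, were fitted within a table by limma 3.58.1 (R 4.3.3, lmFit and eBayes with trend) where a gene averaged 1 CPM or more. P-values were two-sided, adjusted by Benjamini-Hochberg over all genes tested with a threshold of 0.05, and tested on simulated data. Differences on this scale understate changes of weak genes. Within a table each library is a different mouse, and the labels name no size-matched partners. Genes and lists were chosen with earlier results of these data known. A fitted difference is given for the 2 genes per role and table with the lowest unadjusted p, for 2 genes of each further list averaging 5 CPM or more, and for Cxcr4. Alternatives were pseudocounts of 0.1 and 5, other filters, 3 rescalings (trimmed mean, median ratio, protein-coding total), no trend, each library left out, and only the 4 mice in both tables. Those for the contrast of enzymes and targets and for levels side by side were added after seeing the data. Positions in the tables match GENCODE vM21 starts for only 2.19% and 2.29% of genes, so gene lengths came from that annotation (GRCm38) by gene identifier. A length is that of all annotated exons of a gene, with overlapping exons counted once.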

Additional observations from a re-analysis of the deposited data

How the results depend on the processing

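No paired analysis was possible because the cKO and control groups share no mouse number. Macrophages and tumors share 4 mice, whose differences are given within each mouse without a test. No gene of the set passed the threshold in any alternative run, the lowest adjusted p being 0.529 in tumors with a mean of at least 5 CPM. In macrophages 236 of 254 values of single genes kept their sign and 18 turned. In tumors 178 of 180 kept it. Over all genes the count past the threshold in macrophages was 2 with only the 4 mice shared by both tables and 0 to 3 with a library left out (3 without control 775, 1 without control 706 or cKO 867), and in tumors it was 0 throughout. With those 4 mice the difference turned to -0.21 for Slc2a3, -0.085 for Eno1, -0.68 for Slc16a3, -0.049 for Slc16a1 and -0.16 for Hif1a. Rescaling to protein-coding genes turned Hif1a to -0.030. With a library left out, macrophage differences ranged from -0.15 to 0.43 for Pdk1, -0.62 to 0.95 for Cxcr4, -0.17 to 0.58 for Epas1, -0.075 to 0.092 for Hif1a, -0.16 to 0.060 for Pfkfb3, -0.0052 to 1.47 for P4ha2, -0.16 to 0.95 for Slc2a3 and -0.43 to 1.04 for Slc16a3. In tumors they ranged from -0.19 to 0.041 for Slc2a1 and -0.30 to 0.63 for Slc16a1. The medians ranged from -0.22 to 0.22 for enzymes and -0.39 to 0.09 for other HIF targets in macrophages, and from 0.016 to 0.41 and -0.22 to 0.45 in tumors. The tumor median of other HIF targets was 0.12 with a mean of at least 5 CPM. The contrast of enzymes and other HIF targets differed in macrophages by 0.12 without Egln1 and Egln3, 0.13 with Pdk1 and Pfkfb3 among the targets, 0.16 with a pseudocount of 0.1 or 5, and 0.070 to 0.24 with a library left out. In tumors it was 0.33 without Egln1 and Egln3, -0.03 with Pdk1 and Pfkfb3, and 0.025 to 0.34 with a library left out. Genes below every tumor numbered 3 with scaling to protein-coding genes and 1 with any library left out, and those above numbered 6 and 9 to 13. The causes of these shifts were not tested. Depth limits statements on Slc2a3, Slc16a3, Ankrd37 and P4ha2, which reached 0 or a few reads in some libraries.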
